A study of Mus musculus with 28 samples.

Results

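Dbp, Tef, Hlf and Nfil3 encode the transcription factors of the D-box arm of the circadian clock. The 4 genes were chosen by name and matched from symbol to mouse Entrez identifier, and they are 4 of the 27179 genes counted in both deposited tables. All 4 passed the filter on low counts in every comparison. DBP, TEF and HLF are the proline and acidic amino acid-rich basic leucine zipper (PAR bZIP) activators. They bind the D-box, a short element in the promoters of clock genes such as Per1, Per2 and Per3 and of genes for metabolism and detoxification. NFIL3, also called E4BP4, binds the same element and represses. In the textbook scheme, worked out mainly in mouse liver and the suprachiasmatic nucleus, CLOCK and BMAL1 drive Dbp, and to a lesser degree Tef and Hlf, through E-boxes. REV-ERB and ROR proteins set Nfil3 through ROR response elements (RORE), so that activator and repressor transcripts peak at opposite times. The choroid plexus, the epithelium of the brain ventricles that secretes cerebrospinal fluid, has its own clock.

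The 28 libraries, each from the choroid plexus of the lateral ventricles of a single male mouse, fall into 7 groups of 4. Young wild-type C57/BL6 mice of 3 to 4 months were taken at night, 6 hours after lights-off (ZT18, labelled awake), by day at ZT6 after 6 hours of sleep disruption (SD), or by day at ZT6 after undisturbed sleep. Mice of 12 to 14 months were either positive for the J20 transgene (J20+) or its negative wild-type littermates (J20-, here aged wild-type), each taken at night (ZT18) or by day (ZT6). The J20 transgene is a human APP gene that bears familial Alzheimer's disease mutations and is driven by a platelet-derived growth factor promoter, which is active mainly in neurons. All mice were perfused under isoflurane before dissection. The young libraries are batch 1 and the aged libraries batch 2 in the labels, so age and batch cannot be told apart.

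Total counts ran from 22.5M to 29.0M in young libraries and from 14.6M to 43.9M in aged ones. All 12 markers of choroid epithelium had counts in every group. Mouse App overlapped between J20+ and aged wild-type mice by day, at 1485 to 2252 CPM and 1760 to 1996 CPM, so it checks no label. Whether reads of the human transgene were counted in it is not given in the sources used here. CPM are counts scaled to a common library size. The tissue was not pure. The summed level of 12 neuron markers was 165 to 1260 CPM in aged wild-type night libraries, against 38.3 to 216 CPM by day, and that of the 12 choroid epithelium markers was 23518 to 34648 CPM, against 41292 to 50048 CPM. In J20+ mice the lowest summed choroid epithelium level was 22932 CPM at night and 30972 CPM by day, from night replicate 2 and day replicate 1. In bulk tissue, fewer cells of a type and less RNA per cell cannot be told apart.

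The promoter sequences are shown because the regulators described further on are known to act through E-boxes and ROREs. Whether they act through the matches shown was not tested. In the 250 bases before each RefSeq start (GRCm38.p6), the E-box CACGTG, read on both strands, was found before both Tef starts, and the RORE letters AGTAGGTCA before Nfil3. Capitals mark the motif, and each sequence is on the strand of its gene.
Tef downstream start, chr15:81811164-81811413, plus strand: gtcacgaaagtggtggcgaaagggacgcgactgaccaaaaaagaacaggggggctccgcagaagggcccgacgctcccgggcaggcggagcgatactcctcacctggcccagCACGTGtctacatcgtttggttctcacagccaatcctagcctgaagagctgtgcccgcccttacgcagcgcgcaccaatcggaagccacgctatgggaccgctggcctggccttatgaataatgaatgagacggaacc
Tef upstream start, chr15:81802534-81802563, plus strand: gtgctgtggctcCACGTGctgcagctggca
Nfil3, chr13:52981040-52981069, minus strand: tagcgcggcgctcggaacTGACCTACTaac
The Nfil3 match lies on the strand opposite to the gene, so the capitals are the reverse complement of the RORE letters, and it ends 4 bases before the one Nfil3 start in the promoter table. The RefSeq span of the gene, read on the minus strand, begins further upstream, at base 52982878, so the match lies inside the annotated gene, and both this window and the upstream Tef window overlap an annotated exon. Among 32851 windows of this length, 6.02% held the E-box and 0.14% the RORE. The D-box forms TTATGTAA and TTACGTAA were in 0.819% and 0.113% of windows and in none of the 4 genes' windows. The windows of Dbp (chromosome 7) and Hlf (chromosome 11) held none of these motifs. These letters say nothing of binding, and the windows leave out introns, where E-boxes of Dbp are known.

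The 4 genes differed in level and in how far they moved. Per kilobase of exon, Tef was the most abundant in every group, with 14.0 CPM per kb in young night libraries and 29.1 CPM per kb in J20+ day libraries. Dbp averaged 1.41 CPM per kb in young night libraries and 4.52 CPM per kb in young day libraries, and 5.77 and 18.1 CPM per kb in aged wild-type night and day libraries. Nfil3 averaged 10.0 CPM per kb in young night libraries, above Dbp, and 3.08 CPM per kb in young day libraries, below Dbp. The 2 tables were scaled separately, so levels set across ages are a description only.

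The order of mean CPM over the 7 groups was distinct for each gene. Dbp was highest by day in aged mice, at 54.2 ± 17.1 CPM in aged wild-type and 54.0 ± 12.1 CPM in J20+ mice (SD, n = 4 each), which did not differ beyond their spread. Then came aged wild-type night at 17.3 ± 1.6, J20+ night at 16.7 ± 6.8, young SD at 15.9 ± 5.5 and young day at 13.5 ± 3.8 CPM, 4 neighbours within their spread. Young night, at 4.21 ± 1.90 CPM, stood below all other groups. Nfil3 ran the other way, with J20+ night at 28.4 ± 11.5, aged wild-type night at 27.1 ± 3.7 and young night at 20.3 ± 2.1 CPM. Below them lay aged wild-type day at 9.57 ± 1.56, J20+ day at 8.95 ± 1.17, young SD at 7.26 ± 1.46 and young day at 6.23 ± 0.89 CPM. Every night group thus had a higher mean Nfil3 level than every day group. Tef and Hlf showed no such split. Tef was highest in J20+ day (229 ± 45 CPM) and J20+ night (225 ± 56 CPM), and lowest in young night (110 ± 25 CPM). Between these were aged wild-type day at 208 ± 44, aged wild-type night at 198 ± 12, young SD at 177 ± 23 and young day at 171 ± 22 CPM. Hlf was highest in young day (98.7 ± 13.4 CPM) and young SD (88.1 ± 4.8 CPM), with J20+ day at 75.7 ± 12.2 and young night at 74.2 ± 17.4 CPM next. Aged wild-type day at 64.5 ± 15.7, J20+ night at 60.2 ± 20.9 and aged wild-type night at 59.8 ± 11 CPM lay below, each neighbour within the spread of the next.

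**Figure D1:**
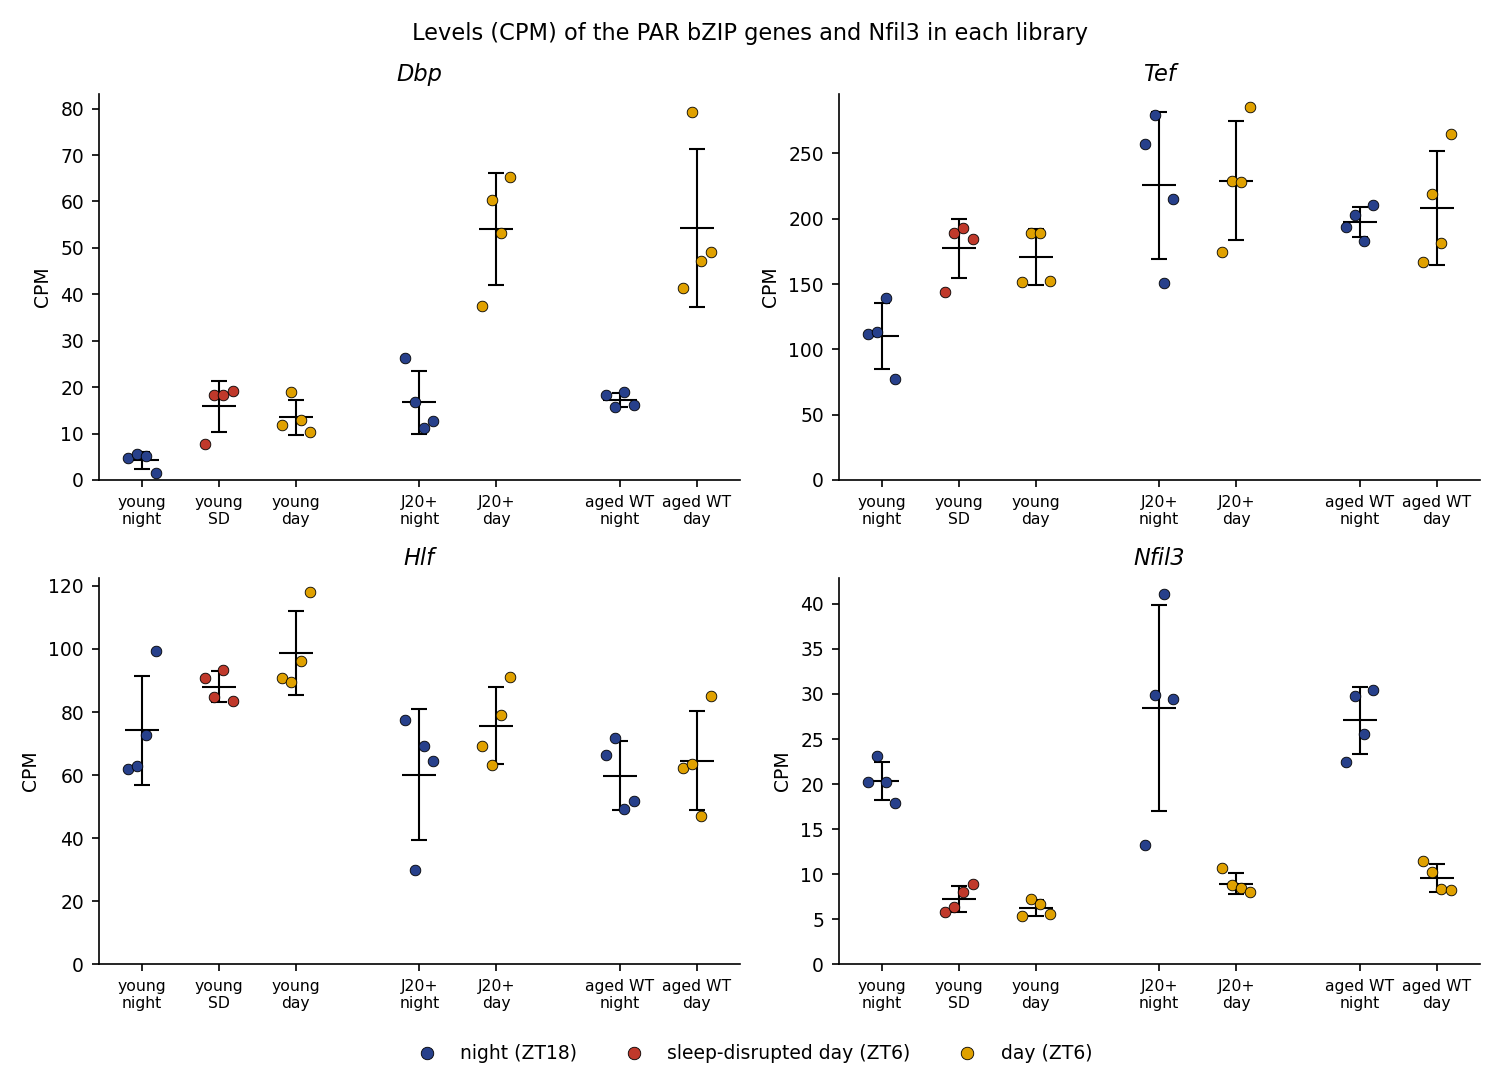
CPM (counts scaled to library size, y axis) of Dbp, Tef, Hlf and Nfil3 in each of 28 libraries by group (x axis); points are mice, black bars the mean ± SD of 4 mice, and colours mark night, sleep-disrupted day and undisturbed day. Nfil3 at night (13.3 to 41.1 CPM) lies above every day library (5.39 to 11.5 CPM), while Tef and Hlf overlap between night and day in aged mice.

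In young mice the comparison of night with undisturbed day asked how the genes differ with time of day. Nfil3 was 3.26-fold higher at night and was the one member of 4 to pass the test, where 0.267% of 14983 genes did. It was counted at 20.2, 23.1, 20.2 and 17.9 CPM at night and at 5.39, 7.22, 6.73 and 5.59 CPM by day. Every night library lay well above every day library. Its log2 fold change was 1.70 ± 0.16 (SE), with an adjusted p of 0.00027 in edgeR's quasi-likelihood test, the rank 6 gene by p. Dbp, the PAR bZIP gene with the deepest known rhythm in other tissues, was counted at 4.73, 5.60, 5.09 and 1.42 CPM at night and at 11.8, 19, 12.9 and 10.4 CPM by day. Night replicate 4, with 36 reads, was far below the other 3, and no night library reached the day range. The log2 fold change of Dbp was -1.68 ± 0.39 (95% interval -2.52 to -0.84), which did not pass after adjustment in edgeR (adjusted p = 0.128).

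Tef, named for its activity in thyrotroph cells of the embryonic pituitary, was counted at 112, 113, 139 and 77.4 CPM at night and at 152, 189, 189 and 152 CPM by day. Its groups did not overlap either, and replicate 4 was again the lowest at night. Tef had a log2 fold change of -0.63 ± 0.16, with an adjusted p of 0.185 in edgeR. Hlf, first known as the partner in a leukaemia fusion gene, was counted at 61.9, 62.9, 72.7 and 99.2 CPM at night and at 90.9, 89.4, 96.2 and 118 CPM by day. Here night replicate 4 was the highest and lay inside the day range. Hlf had a log2 fold change of -0.41 ± 0.14, with an adjusted p of 0.393 in edgeR. Groups of 3 of the 4 members thus did not overlap, against 4.69% of all genes tested. Without night replicate 4, whose summed macrophage markers were the highest of the young libraries at 451 CPM, Hlf passed at -0.58 ± 0.10 (adjusted p = 0.0296), where 0.724% of genes did. Nfil3 also passed without it, while Dbp (-1.39 ± 0.30, adjusted p = 0.0599) and Tef (-0.49 ± 0.13, adjusted p = 0.0846) did not. The part of macrophages in these values was not tested. DESeq2 on the same counts also called Dbp (adjusted p = 0.0014) and Tef (adjusted p = 0.0102), so that 3 members passed there, where 1.87% of genes did, and limma-voom with quality weights called all 4, where 18.7% of genes were called.

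The sleep-disrupted mice were taken at the same hour as the undisturbed day mice, so this pair sets sleep disruption apart from clock time. None of the 4 members passed in edgeR, nor did any other gene (0% of 14983), with 2.4% of genes at an unadjusted p under 0.05. DESeq2 and limma-voom also called none of the 4. Nfil3 was counted at 5.74, 6.40, 7.97 and 8.94 CPM after sleep disruption, within or just above the undisturbed day range, and Dbp at 7.72, 18.4, 18.3 and 19.2 CPM. Only SD replicate 1 was below the undisturbed day range of Dbp, and SD replicate 4 was above it. The log2 fold change was 0.22 ± 0.16 for Nfil3 (95% interval -0.12 to 0.56), 0.23 ± 0.37 for Dbp (-0.56 to 1.03), 0.06 ± 0.16 for Tef (-0.29 to 0.40) and -0.16 ± 0.14 for Hlf (-0.47 to 0.15). Groups overlapped for all 4 (1.97% of genes did not overlap), all 4 intervals held 0, and the adjusted p-values in edgeR were 0.861 to 0.924. The intervals for Nfil3 and Dbp leave out a difference as large as the estimate between night and undisturbed day, that for Dbp being the wider.

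Night and sleep-disrupted day differ in clock time, in light and in the disruption itself. The labels give awake for the night mice and sleep disrupted for the day mice, and time spent awake is not given. This comparison shares its night libraries with the previous night comparison, so the pair is not independent. Nfil3 passed again, with a log2 fold change of 1.48 ± 0.16 (adjusted p = 0.00109 in edgeR), where 0.38% of genes did. Dbp was counted at 1.42 to 5.60 CPM at night and at 7.72 to 19.2 CPM after sleep disruption, with a log2 fold change of -1.91 ± 0.39 (adjusted p = 0.0653). Tef, at 77.4 to 139 CPM at night and 144 to 193 CPM after disruption, had -0.68 ± 0.16 (adjusted p = 0.123), and Hlf -0.25 ± 0.14 (adjusted p = 0.671). Nfil3, Dbp and Tef did not overlap between the groups, against 7.83% of genes, and Hlf did. SD replicate 1 was the lowest of its group for both Dbp and Tef. Without it, or without night replicate 4, Dbp passed along with Nfil3, where 0.252% and 0.571% of genes did.

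In aged wild-type mice the night and day values of Dbp and Nfil3 were again set apart, while those of Tef and Hlf were not. Dbp was counted at 18.3, 15.7, 18.9 and 16.2 CPM at night and at 41.4, 79.4, 47.1 and 49.0 CPM by day. Nfil3 was counted at 22.5, 29.7, 25.6 and 30.5 CPM at night and at 11.5, 10.2, 8.34 and 8.23 CPM by day. For both genes the night and day libraries did not overlap, which held for 26.1% of the 16065 genes in this comparison. The log2 fold changes were -1.65 ± 0.27 for Dbp (adjusted p = 0.0756) and 1.5 ± 0.26 for Nfil3 (adjusted p = 0.0887) in edgeR. So 0 of 4 members passed, where 0.0124% of genes did and 31.1% had an unadjusted p under 0.05, Dbp and Nfil3 among them. DESeq2, limma-voom and fits on the compared groups or on all 28 libraries each called both genes, but these called 9.08%, 51.7%, 26.2% and 19.2% of all genes tested.

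Tef was counted at 194, 203, 183 and 210 CPM in aged wild-type mice at night and at 167, 219, 182 and 265 CPM by day. Hlf was counted at 66.3, 71.8, 49.3 and 51.9 CPM at night and at 62.2, 63.6, 47.0 and 85.1 CPM by day. Night values of both lay within the day range. The log2 fold change was -0.07 ± 0.20 for Tef (95% interval -0.51 to 0.36) and -0.11 ± 0.26 for Hlf (-0.65 to 0.44), and both signs turned under other settings, such as upper-quartile scaling. The neuron and choroid epithelium markers given above moved with this comparison. With the mean log2 level of neuron, oligodendrocyte and astrocyte markers as a covariate, Dbp was at -1.55 ± 0.33 and Nfil3 at 1.49 ± 0.32, close to the values without it, and Hlf was at 0.30 ± 0.28.

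In J20+ mice Dbp fell and Nfil3 rose at night. Dbp was counted at 26.3, 16.8, 11.3 and 12.6 CPM at night and at 37.5, 60.2, 53.1 and 65.2 CPM by day. Nfil3 was counted at 13.3, 29.9, 41.1 and 29.5 CPM at night and at 10.6, 8.78, 8.41 and 7.98 CPM by day. No libraries overlapped for either gene, which held for 3.61% of genes. Night replicate 1 was nearest to the day group for both, with the highest Dbp and the lowest Nfil3 level of the night libraries. The log2 fold changes were -1.69 ± 0.27 for Dbp and 1.67 ± 0.26 for Nfil3, both with an adjusted p of 0.0451 in edgeR, so that 2 of 4 members passed, where 0.0436% of genes did. These calls sat close to the threshold. DESeq2, limma-voom, a neural covariate and the fit on all 28 libraries called both genes. Of all genes, these fits called 0.496%, 1.71%, 0.0622% and 0.163%. With no filter Nfil3 passed and Dbp did not, where 0.018% of genes passed. Neither gene passed under RLE scaling, upper-quartile scaling, a stricter filter, a stromal covariate, a fit of the compared groups alone, or the loss of any J20+ library other than night replicate 1. Without night replicate 2 and day replicate 1 together, Dbp was at -1.83 ± 0.30 (adjusted p = 0.0663) and Nfil3 at 1.74 ± 0.30 (adjusted p = 0.101). The adjusted p of Dbp ranged from 1.76e-06 to 0.987 over the alternatives, and that of Nfil3 from 7.2e-06 to 0.987, while the fold changes stayed between -2.05 and -1.58 and between 1.37 and 1.83.

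Tef was counted at 257, 279, 151 and 215 CPM in J20+ mice at night and at 174, 229, 228 and 285 CPM by day. Hlf was counted at 77.3, 29.9, 69.1 and 64.4 CPM at night and at 69.1, 63.3, 79.1 and 91.1 CPM by day. The groups overlapped for both. The low Hlf value was from night replicate 2, the night library with the lowest choroid epithelium score. The log2 fold change was -0.02 ± 0.20 for Tef (95% interval -0.45 to 0.41) and -0.33 ± 0.25 for Hlf (-0.87 to 0.21), and the adjusted p-values in edgeR were 0.9998 and 0.729. Without night replicate 2 that of Hlf was -0.10 ± 0.19.

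**Figure D2:**
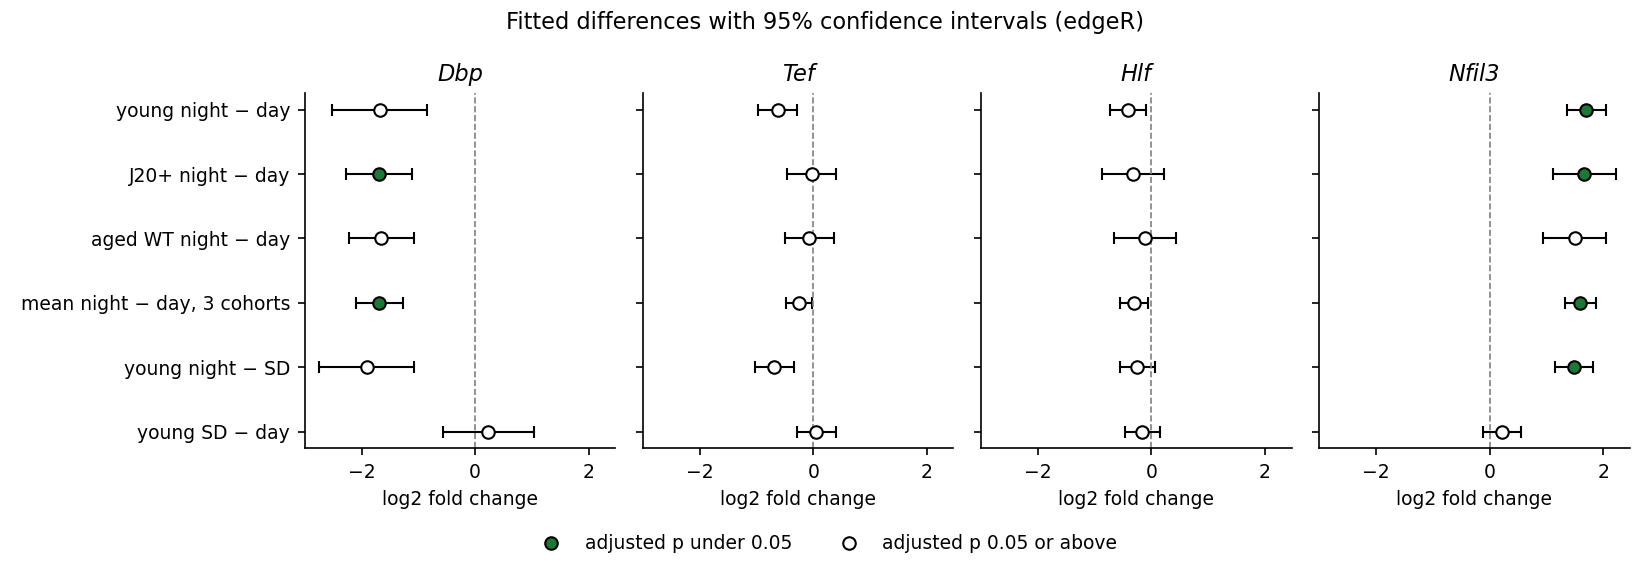
Log2 fold changes (x axis) of the 4 genes in 6 comparisons (y axis) from edgeR, with 95% confidence intervals; filled points have an adjusted p under 0.05. Nfil3 was between 1.48 and 1.70 in all 5 comparisons of night with day or sleep-disrupted day and Dbp between -1.91 and -1.65, whereas Tef and Hlf lay nearer to 0.

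The J20+ and aged wild-type groups overlapped for all 4 genes at both times, where 1.36% of genes by day and 7.15% at night did not. By day, no member passed between J20+ and aged wild-type mice, nor did any gene (0% of 16065, with 1.87% at an unadjusted p under 0.05 in edgeR). Dbp differed by -0.01 ± 0.26 on the log2 scale (95% interval -0.57 to 0.55), Nfil3 by -0.10 ± 0.25 (-0.64 to 0.45), Tef by 0.14 ± 0.20 (-0.29 to 0.57) and Hlf by 0.23 ± 0.25 (-0.31 to 0.78). At night, 0 of 4 passed, where 0.00622% of genes did. Dbp differed by -0.05 ± 0.27 (-0.61 to 0.52), Nfil3 by 0.07 ± 0.25 (-0.47 to 0.61), Tef by 0.19 ± 0.20 (-0.24 to 0.62) and Hlf by 0.01 ± 0.25 (-0.54 to 0.55). The median neural score was 2.55 in J20+ night and 6.06 in aged wild-type night libraries, and with it as a covariate Hlf differed by -0.43 at night. DESeq2 called none of the 4 at either time, while it called 19.2% of genes at night. These intervals allow differences of up to 0.78 on the log2 scale.

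The night-to-day difference itself was compared between cohorts with interaction terms. Between J20+ and aged wild-type mice it differed by -0.04 ± 0.37 for Dbp (95% interval -0.84 to 0.76) by 0.17 ± 0.36 for Nfil3 (-0.60 to 0.93), by 0.05 ± 0.29 for Tef (-0.56 to 0.66) and by -0.22 ± 0.36 for Hlf (-0.99 to 0.55). With the neural score as a covariate, Hlf was at -0.71. No gene of 16065 passed there (0%), with 12.4% at an unadjusted p under 0.05 in edgeR. Between aged wild-type and young mice it differed by 0.00 ± 0.39 for Dbp (-0.81 to 0.81) and by -0.23 ± 0.32 for Nfil3 (-0.88 to 0.43). Tef gave the largest estimates, 0.53 ± 0.27 between aged wild-type and young mice (-0.03 to 1.10, adjusted p = 0.298) and 0.59 ± 0.27 between J20+ and young mice (0.03 to 1.15, adjusted p = 0.9999). No gene of 16590 passed in either comparison of an aged cohort with the young one (0%), with 17.3% and 3.44% at an unadjusted p under 0.05, and Tef was among the 3.44%. Limma-voom gave 0.06 for Tef between J20+ and young mice. A difference between young and aged mice in how Tef responds was therefore not established in edgeR, and age cannot be told from batch. DESeq2 called no member in any of these interactions, and limma-voom called Hlf between aged wild-type and young mice (0.46, adjusted p = 0.045), where it called 35.8% of all genes.

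Averaged over the young, aged wild-type and J20+ cohorts, Nfil3 rose 3.03-fold at night (log2 1.60 ± 0.13, adjusted p = 4.29e-08 in edgeR) and Dbp fell 3.22-fold (-1.69 ± 0.20, adjusted p = 2.15e-05). Thus 2 of 4 members passed, where 3.15% of 16590 genes did, and Nfil3 had the rank 3 and Dbp the rank 7 by p. This average rests on the libraries already described and is no independent test. Tef was at -0.26 ± 0.11 (95% interval -0.49 to -0.03, adjusted p = 0.137) and Hlf at -0.31 ± 0.12 (-0.56 to -0.06, adjusted p = 0.111). Dbp and Nfil3 passed under all 34 alternatives, with adjusted p-values up to 8.32e-05 and 2.96e-07. Tef passed without J20+ day replicate 1 and J20+ night replicate 2 (-0.37 ± 0.11, adjusted p = 0.034), where 9.75% of genes did. In limma-voom, which called 38.2% of genes, Tef (adjusted p = 0.0241) and Hlf (adjusted p = 0.00455) passed.

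Dbp shares 539 exon bases, 18% of its exon length, with Sphk2 on the opposite strand, and the strand setting of the authors' counting is not given in the sources used here. Reads from this stretch may have been assigned to either gene or to neither. Sphk2, which encodes a sphingosine kinase, averaged 5.59 CPM at night and 3.93 CPM by day in young mice, 52.1 and 38.0 CPM in J20+ mice and 44.7 and 37.2 CPM in aged wild-type mice. Its mean log2 fold change over the 3 cohorts was 0.39 ± 0.11 (adjusted p = 0.0463 in edgeR), opposite in sign to that of Dbp. Both Sphk2 and Dbp had lower levels in the young table than in the aged one. Whether the 2 tables were counted with the same settings is not given in the sources used here either, so the order of Dbp over the 7 groups and its ratios set across ages may hold a difference in counting, which was not tested. Tef shares 193 exon bases (2.5%) with Gm17597.

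The balance of repressor to activator transcripts was described as the log2 ratio of Nfil3 to Dbp, both per kilobase of exon. In young mice it averaged 2.98 at night and -0.52 by day, so the Nfil3 level was above that of Dbp at night and below it by day. It averaged 1.29 at night and -2.0 by day in J20+ mice, and 1.20 at night and -1.90 by day in aged wild-type mice. The night-minus-day difference was 3.50 in young, 3.29 in J20+ and 3.10 in aged wild-type mice, and night and day libraries did not overlap within any cohort. This separation follows from the results above, as Nfil3 was higher and Dbp lower at night without overlap in each cohort. It is no further test. Across cohorts, 11 of 12 night libraries lay above all 16 day libraries. The exception was J20+ night replicate 1 at -0.42, below the highest day value of 0.14, which belonged to young SD replicate 1. After sleep disruption the ratio averaged -0.49, like the undisturbed day value. Set against Tef, the ratio overlapped between night and day in J20+ mice. Set against Hlf, it did not overlap in any cohort, with a gap of 0.16 in J20+ mice and 1.15 in young mice.

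**Figure D3:**
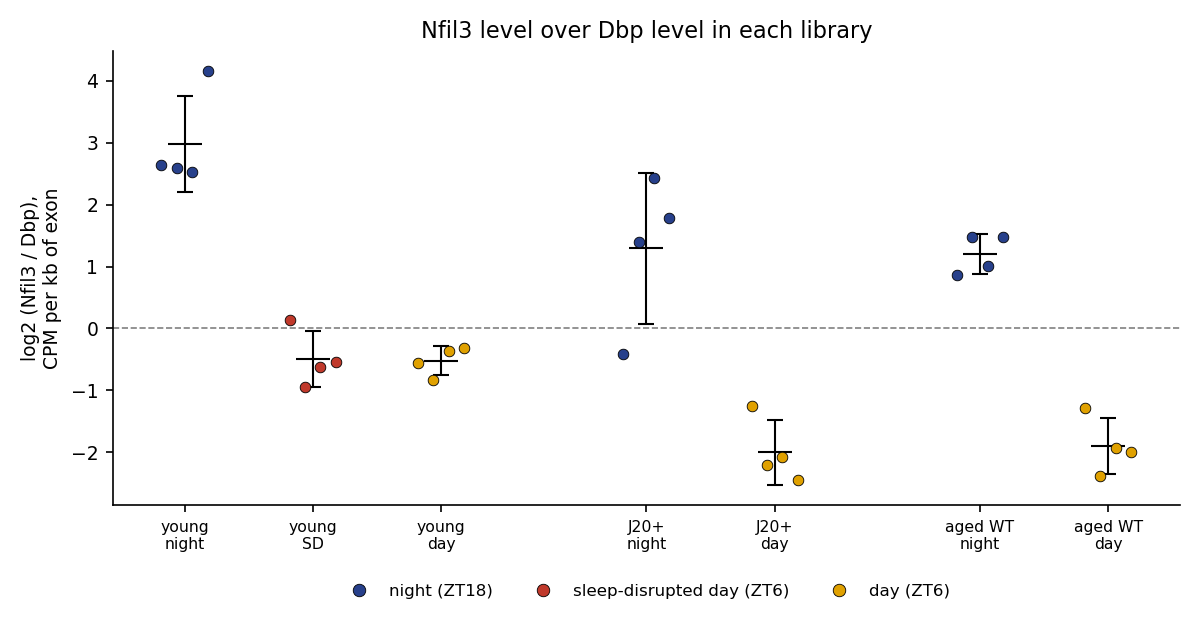
Log2 ratio of the Nfil3 to the Dbp level, both as CPM per kilobase of exon (y axis), in each library by group (x axis), with mean ± SD of 4 mice. Young night libraries sit at 2.53 to 4.15 and aged wild-type night libraries at 0.86 to 1.48, whereas the undisturbed day libraries of all cohorts lie below 0.

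The summed level of the 3 PAR bZIP activators moved less than Dbp alone. It averaged 26.5 CPM per kb at night and 41.0 CPM per kb by day in young mice, 43.3 and 58.5 in J20+ mice, and 39.8 and 54.2 in aged wild-type mice. Dbp made up 5.28% of this sum at night and 11% by day in young mice, 12.6% and 30.7% in J20+ mice, and 14.6% and 33.3% in aged wild-type mice. Tef held 65.9 ± 8.8% at night and 49.7 ± 0.6% by day (mean ± SD) in J20+ mice, where its night and day levels overlapped. Its highest share there, 77.9%, was from J20+ night replicate 2. In young mice Tef held 52.6 ± 9.0% at night and 52.8 ± 3.7% by day. Its share was 39.1% in young night replicate 4 and 56.0% to 58.4% in the other young night libraries.

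Within groups, Dbp and Tef varied together. After each library was centred on its group mean, they had r = 0.74 over 28 libraries, 0.90 in the 12 young and 0.65 in the 16 aged ones. The other 5 pairs had r between -0.30 and -0.09 over 28 libraries. Dbp and Nfil3 had r = 0.71 in young and -0.71 in aged libraries, so their relation within groups turned with the table. Dbp and Hlf had r = -0.77 in young and 0.08 in aged libraries. Hlf had r = -0.59 with the choroid epithelium score and 0.58 with the neural score in young libraries, and 0.65 and -0.57 in aged ones, so these signs turned with the table too. These points share library and depth, and young night replicate 4, low in Dbp and Tef and high in Hlf, is among them.

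Around the members, lists of genes that act on them or through the D-box were examined. Among 10 genes that act at the E-box, 3 rose and 2 fell in young mice at night, where 0.267% of all genes passed, and the list's median log2 fold change was 0.19, against 0.02 over all genes tested. Arntl, which encodes BMAL1, rose (2.50 ± 0.18, adjusted p = 4.47e-05 in edgeR), as did Npas2, its partner (0.76 ± 0.12, adjusted p = 0.0194), and the repressor Cry1 (1.17 ± 0.09, adjusted p = 8.3e-05). Ciart (-1.98 ± 0.35, adjusted p = 0.0445) and Bhlhe41 (-1.25 ± 0.15, adjusted p = 0.00211), both repressors of CLOCK and BMAL1, fell with the same sign as Dbp. Against sleep-disrupted mice the same counts were called, 3 higher and 2 lower, where 0.38% of all genes passed. In J20+ mice only Cry1 passed (1.34 ± 0.22, adjusted p = 0.0451 in edgeR), where 0.0436% of all genes did. In aged wild-type mice none of the 10 did (0.0124% of all genes), and Cry1 had the smallest p there (0.99 ± 0.21, adjusted p = 0.144 in edgeR). Over the 3 cohorts 3 rose and 2 fell, where 3.15% of all genes passed. Per2 (1.12 ± 0.21, adjusted p = 0.00507 in edgeR), a light-responsive repressor, was among the 3 that rose.

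Among 4 genes that act at the RORE, Nr1d1, which encodes the repressor REV-ERB alpha, fell in young (-3.02 ± 0.24, adjusted p = 8.59e-05) and J20+ mice (-2.13 ± 0.24, adjusted p = 0.00194, edgeR). In aged wild-type mice it was at -1.51 ± 0.23 (adjusted p = 0.0583). Nr1d2, its close relative, fell in young mice (-1.68 ± 0.16, adjusted p = 0.000404). In J20+ and aged wild-type mice Nr1d2 was at -0.93 ± 0.31 and -1.25 ± 0.31 (adjusted p = 0.652 and 0.144 in edgeR). Rora and Rorb passed in no cohort. So 2 of the 4 passed in young, 1 in J20+ and 0 in aged wild-type mice. Of all genes, 0.267%, 0.0436% and 0.0124% passed there. The median over these 4 genes was -0.92 in young, -1.28 in J20+ and -1.38 in aged wild-type mice, against 0.02, 0.02 and 0.03 over all genes.

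Downstream, 8 clock genes with known D-boxes gave 1 higher and 3 lower at night in young mice, against 0.267% of all genes called in either direction. The higher gene was Cry1, and the lower ones were Nr1d1, Nr1d2 and Per3, which encodes a period protein (-0.87 ± 0.14, adjusted p = 0.0208 in edgeR). The median log2 fold change of these 8 was 0.01, against 0.02 over all genes. Per3 was at -0.17 ± 0.32 in aged wild-type and -0.16 ± 0.32 in J20+ mice, and passed in neither. Of 13 metabolic genes known as PAR bZIP or NFIL3 targets in liver or kidney, 7 had enough counts to be tested in young and 8 in aged mice, and none passed in any single cohort. Por, which encodes the electron donor of cytochrome P450 enzymes, had the smallest p in each, at -0.47 ± 0.18 in young, -0.59 ± 0.18 in J20+ and -0.87 ± 0.18 in aged wild-type mice. Over the 3 cohorts Por fell (-0.66 ± 0.11, adjusted p = 0.000942), the one of 8 tested to pass, where 3.15% of genes did. Pdxk, which makes the active form of vitamin B6 and is known to depend on the PAR bZIP proteins in mouse brain and liver, was at 0.02 in young, -0.10 in J20+ and -0.52 in aged wild-type mice on the log2 scale, and is named here after its values were seen.

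Members of the C/EBP family, bZIP factors whose sites resemble the D-box, passed in no single cohort, with 4 of 6 tested in young and 5 of 6 in aged mice. Cebpa had the smallest p in young mice (0.51 ± 0.17, adjusted p = 0.354 in edgeR) and Ddit3, a stress-induced member, in aged wild-type (0.85 ± 0.26, adjusted p = 0.144) and J20+ mice (0.68 ± 0.26, adjusted p = 0.652). Over the 3 cohorts Cebpa (0.41 ± 0.12, adjusted p = 0.0498 in edgeR) and Ddit3 (0.67 ± 0.14, adjusted p = 0.0135) rose, where 3.15% of all genes passed. The adjusted p of Cebpa sat at the threshold of 0.05. The median of the 5 tested was 0.67, against 0.01 over all genes.

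**Figure D4:**
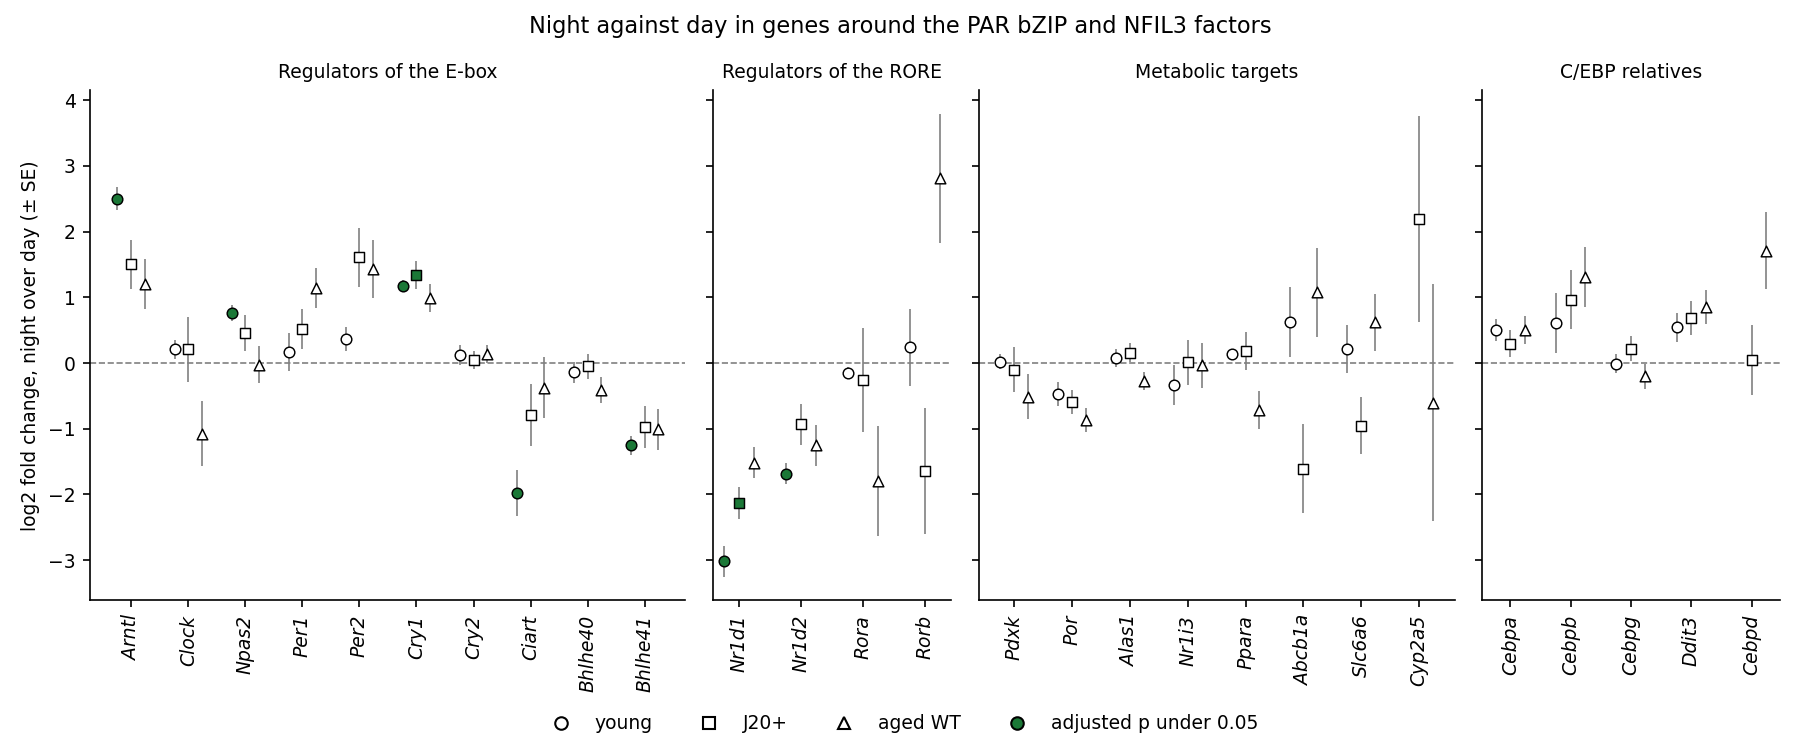
Log2 fold change of night over day (y axis, ± SE) for genes that act at the E-box, genes that act at the RORE, metabolic targets and C/EBP relatives (x axis), with circles for young, squares for J20+ and triangles for aged wild-type mice; filled symbols have an adjusted p under 0.05 in edgeR. Nr1d1 is filled in young and J20+ mice, at -3.02 and -2.13, while no metabolic target is filled.

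Genes whose levels followed each member most closely were ranked by Pearson's r over the 28 libraries, centred within cohort, among 11144 genes. For Nfil3 they included Arntl (r = 0.91), Creld2 (0.90), Leo1 (0.90) and Manf (0.88). For Dbp they were Nr1d1 (0.89), Cirbp (0.88), Por (0.88), Slc3a2 (0.84) and Nsmce1 (0.83). Dbp itself was among the genes most opposed to Nfil3 (r = -0.83, at rank 11140 of 11144). For Tef they were Per3 (0.82), Ufd1 (0.75), Ciart (0.75), Mettl27 (0.73) and Awat2 (0.73), and Dbp had the rank 8 (r = 0.69). For Hlf they were Mat2a (0.90), Oxr1 (0.88), Kifap3 (0.88), Prex2 (0.88) and Cep83os (0.88), a set with no clock gene, and the other 3 members lay far down its ranking (r = 0.28 for Dbp, 0.13 for Tef and -0.50 for Nfil3). Within the young and the aged libraries taken alone, Arntl kept an r of 0.93 and 0.92 with Nfil3, and the leading gene one of 0.89 and 0.90 for Dbp, 0.92 and 0.72 for Tef, and 0.90 and 0.90 for Hlf. Ufd1 and Mettl27 had an r with Tef of 0.87 and 0.85 in young libraries and of 0.55 and 0.54 in aged ones. Centred on the mean of each table instead of the cohort, 3 of the 5 leading genes of Tef were kept. For Dbp and Hlf 4 of 5 were kept, and for Nfil3 all 5. The day-night groups are part of these values.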

How the data were processed

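Poly(A) RNA libraries (TruSeq Stranded mRNA, Illumina NovaSeq, per the labels) were aligned to mm10; the tools named are HISAT2 2.2.1, featureCounts 2.0.1, Picard 2.18.2, FastQC 0.11.8, DESeq2 and cutadapt, per the submitters' processing notes. For the annotation, the strand setting and reads with several alignments, the sources used here give nothing. The authors deposited unnormalized counts by Entrez identifier, in 1 table of 12 young and 1 of 16 aged libraries. All columns were used. Of 27179 identifiers, 25275 (93%) matched a symbol in the RefSeq table of GRCm38.p6.

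Genes were filtered with filterByExpr by group and scaled by the trimmed mean of M values (TMM). Comparisons were tested with edgeR 4.0.16 (R 4.3.3; robust quasi-likelihood, 1 coefficient per group), on 12 young, 16 aged or all 28 libraries. Adjustment was by Benjamini-Hochberg over the whole table, with a threshold of 0.05. The procedure was tested on simulated data. A fold change is night over day or the group named first over the other, and the SE of its log2 is that value over the root of F. CPM are counts scaled to library size within each table, log2 CPM have a prior count of 2, and levels per kb use the exon union of GENCODE vM21. Libraries are separate mice in the labels. Alternatives were DESeq2 1.42.0, voom with quality weights in limma 3.58.1, upper-quartile and RLE scaling, no filter, at least 10 CPM in 4 libraries, marker scores as covariates, other sets of libraries and each library left out.

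The 4 genes and all gene lists were chosen with earlier results of these data known. By rule the text names the 4 genes, the called genes of each pathway list (or the gene with the smallest p where none was called), and the 5 genes with the highest r to each member; a gene these rules name is not reported here. The like-pattern ranking left out genes whose mean log2 CPM was under 1. Promoter sequences are from RefSeq on GRCm38.p6.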

Additional observations from a re-analysis of the deposited data

Results flagged for a closer look

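Within each group of 4, the library farthest from the others was compared with the spread of the group for each of the 4 genes, 28 tests in all, of which chance gives about 1 in 20. Dbp at 7.72 CPM in young SD replicate 1 stood apart below the other 3 SD libraries, at 18.3 to 19.2 CPM. Dbp at 1.42 CPM in young night replicate 4, with 36 reads, stood apart below the other 3 night libraries, at 4.73 to 5.60 CPM. Tef at 144 CPM in young SD replicate 1 stood apart below the other 3, at 184 to 193 CPM. Both libraries were thus low in both Dbp and Tef for their group. SD replicate 1 was also the lowest of its group in Nfil3, at 5.74 CPM, and had the highest neural score of the SD libraries, at 2.81. Night replicate 4 had the highest neural score of the young night libraries, at 2.93. The part of these scores in the low values was not tested.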

How the results depend on the processing

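The direction of Dbp and Nfil3 between night and day, or night and sleep-disrupted day, held under every alternative run, while the number of members passing did not. For young night against day, where 1 member passed, DESeq2 gave 3 and limma-voom 4. The neural covariate gave 2, where 0.367% of genes passed, and leaving out 1 library gave 1 to 2. For young night against sleep disruption, with 1, DESeq2 gave 3, limma-voom 4 and the neural covariate 3. Of all genes, 2.1%, 7.38% and 0.574% passed there. The fit on all 28 libraries gave 2, where 0.0663% of genes passed, and leaving out 1 library gave 1 to 2. For aged wild-type night against day, with 0, DESeq2, limma-voom, the compared groups alone and all 28 libraries each gave 2, and leaving out 1 library 0 to 2. For J20+ night against day, with 2, RLE scaling, upper-quartile scaling, at least 10 CPM in 4 libraries, the stromal covariate and the compared groups alone each gave 0, no filter gave 1, and leaving out libraries 0 to 2. The pair left out together was J20+ day replicate 1 and J20+ night replicate 2. Limma-voom gave 4 for the mean of the cohorts, where 2 passed, and 1 for the night-day difference between aged wild-type and young mice, where 0 passed, but called 38.2% and 35.8% of all genes there. The cause was not tested.

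Signs turned only for values that did not pass. For aged wild-type night against day, Tef was 0.056 with upper-quartile scaling, 0.094 in limma-voom, 0.024 with at least 10 CPM in 4 libraries, 0.040 with the neural covariate and -0.18 to 0.034 with 1 library left out. Hlf was 0.027 with upper-quartile scaling, 0.30 with the neural covariate and -0.24 to 0.030 with 1 library left out. For J20+ night against day, the sign of Tef turned only with libraries left out, at -0.25 to 0.10, while limma-voom gave -0.39. For J20+ against aged wild-type by day, Dbp was 0.17 in limma-voom, 0.00019 with no filter, 0.0012 with the neural covariate, 0.00051 with the stromal one, 0.0025 in the compared groups alone and -0.11 to 0.24 with libraries left out. Nfil3 was -0.19 to 0.041 with libraries left out.

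At night between the genotypes, Hlf was -0.026 with RLE scaling, -0.20 with upper-quartile scaling, -0.026 in DESeq2, -0.15 with at least 10 CPM in 4 libraries, -0.43 with the neural covariate, -0.083 with the stromal one, -0.025 in the compared groups alone, -0.0091 on all 28 libraries and -0.16 to 0.24 with libraries left out. Nfil3 was -0.11 with upper-quartile scaling, -0.058 with at least 10 CPM in 4 libraries and -0.17 to 0.29 with libraries left out. Tef was -0.091 in limma-voom, and Dbp was 0.044 with no filter and -0.37 to 0.098 with libraries left out.

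For the night-day difference between J20+ and aged wild-type mice, Tef was -0.064 with upper-quartile scaling, -0.48 in limma-voom, -0.032 with at least 10 CPM in 4 libraries, -0.064 with the neural covariate and -0.18 to 0.18 with libraries left out. Hlf kept its sign with the neural covariate, at -0.71, and Dbp was 0.044 with no filter. Leaving out libraries gave -0.38 to 0.11 for Dbp, -0.42 to 0.011 for Hlf and -0.11 to 0.35 for Nfil3. For that between aged wild-type and young mice, Dbp was -0.020 with RLE scaling, -0.019 in DESeq2, -0.34 in limma-voom, -0.0094 with no filter, -0.11 in the compared groups alone and -0.29 to 0.24 with 1 library left out. For that between J20+ and young mice, Hlf was -0.0051 with the neural covariate and -0.083 to 0.28 with libraries left out, Dbp 0.081 with the stromal covariate and -0.34 to 0.14, and Nfil3 0.0084 with the stromal covariate and -0.29 to 0.16.

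No paired analysis was possible because the replicate numbers follow the order of the sample records and name separate mice. Only 2 times of day were sampled, so a peak time cannot be placed. Dbp in young night libraries rested on 36 to 171 reads per library, which limits its precision, and reads were counted without molecular identifiers.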
